A study of Mus musculus with 4 samples.

Results

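The nuclear-encoded genes of respiratory complexes II, III, IV and V, with the electron carrier cytochrome c, were described in whole normal muscle of mice. A gene was a member where its symbol in the platform annotation was Cycs or Cyc1 or began with Sdh, Uqcr, Cox4, Cox5, Cox6, Cox7, Cox8 or Atp5, and where a probe set was assigned to that gene alone. The only measured value used was the mean level over the samples, by which the brightest probe set of each gene was picked. The rule gave 50 members among 12393 measured genes, with 7 members in complex II, 9 in complex III, 1 for cytochrome c, 16 in complex IV and 17 in complex V.

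The respiratory chain of the inner mitochondrial membrane passes electrons to oxygen and pumps protons, and complex V uses the proton gradient to make ATP. Complex II oxidises succinate, complex III hands electrons to cytochrome c, and complex IV, cytochrome oxidase, reduces oxygen. Most subunits are encoded in the nucleus, while the catalytic core of complex IV is encoded in mitochondrial DNA. Several subunits of complex IV exist in a form found mainly in heart and skeletal muscle and a form found in most tissues.

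There were 4 arrays, all of bulk muscle of wild type mice of a mixed 129S4/SvJae and C57BL/6 strain, titled skm4 and skm5, and nm7 and nm8. They formed 1 group with 1 array per sample. The labels do not give the meaning of the title prefixes, the muscle, or the age of the mice, and whether each array stands for its own animal is not stated. RNA was isolated with either of 2 methods, a column kit or TRIzol, without a statement of which was used for which sample. The sarcomas that the series also covers were not analysed here. The question asked here was how evenly these genes were expressed in the samples, and whether they differed between the skm and nm samples. In bulk tissue, fewer cells of a type and less RNA per cell cannot be told apart. Values are log2 expression values of the authors' robust multi-array averaging (RMA), in which a difference of 1 is 2-fold, and the level of a probe set is not comparable with that of another probe set.

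The samples read as skeletal muscle. Acta1, the skeletal muscle actin, stood between 14.54 and 14.70, and Ckm, the muscle creatine kinase, between 14.58 and 14.62. Of 7 listed heart markers, Myh6, a heart myosin, read 4.66 and 4.33 in the skm samples, against 5.14 and 4.61 in the nm samples. Nppa, Nppb, Myl7 and Tnni3 also lay below 7.86, the median of gene means, whereas Myl4 and Sln lay above it. Myl4 read 8.6 in skm, against 8.7 and 8.6 in nm, and Sln 10.7 and 9.9 in skm, against 9.8 and 9.4 in nm. Of 6 listed brown fat markers 4 were measured, and of these Ucp1 and Cidea were bright while Elovl3 and Dio2 were dim. Ucp1, the uncoupling protein, read 11.14 and 11.29 in skm4 and skm5, against 10.80 and 11.24 in nm7 and nm8. Cidea, a lipid droplet protein of brown fat, read 11.84 and 11.60 in skm, against 12.51 and 12.38 in nm. Elovl3 read 5.67 and 6.40 in skm, against 5.63 and 5.93 in nm. Dio2 read 6.62 and 6.46 in skm, against 7.15 and 6.38 in nm, so both lay below the median of gene means. The mean level of the 4 measured markers was 8.82 and 8.94 in skm, against 9.02 and 8.98 in nm. Ucp1 and Cidea are far above the control probe sets for bacterial tryptophan genes, which read 3.40 to 4.05. The part of such cells in the members' values was not tested.

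Promoter windows of 300 bases, 250 before to 50 after the gene start, were taken from RefSeq on GRCm38.p6 and were at hand for 38 of the 50 members. The first set below shows the genes of the c ring, the proton-driven rotor of complex V. These 3 genes encode the same mature protein, and their differences between the prefixes were unequal. Capitals mark letters that match a searched motif on either strand, which leaves the Atp5g1 window without capitals.
Atp5g1 promoter, chr11:96075582-96075881, minus strand: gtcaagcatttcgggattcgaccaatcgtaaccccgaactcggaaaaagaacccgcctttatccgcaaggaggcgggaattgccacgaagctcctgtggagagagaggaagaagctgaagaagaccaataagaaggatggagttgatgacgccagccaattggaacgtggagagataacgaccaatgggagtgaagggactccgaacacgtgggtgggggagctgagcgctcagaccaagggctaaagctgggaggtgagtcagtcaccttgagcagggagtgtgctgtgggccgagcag
Atp5g2 promoter, chr15:102670998-102671297, minus strand: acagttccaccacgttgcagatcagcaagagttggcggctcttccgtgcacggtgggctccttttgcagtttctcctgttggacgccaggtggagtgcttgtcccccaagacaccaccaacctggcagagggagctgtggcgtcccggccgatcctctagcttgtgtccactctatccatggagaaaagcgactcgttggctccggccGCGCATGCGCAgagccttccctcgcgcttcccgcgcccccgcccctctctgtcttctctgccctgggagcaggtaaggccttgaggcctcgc
Atp5g3 promoter, chr2:73911277-73911576, minus strand: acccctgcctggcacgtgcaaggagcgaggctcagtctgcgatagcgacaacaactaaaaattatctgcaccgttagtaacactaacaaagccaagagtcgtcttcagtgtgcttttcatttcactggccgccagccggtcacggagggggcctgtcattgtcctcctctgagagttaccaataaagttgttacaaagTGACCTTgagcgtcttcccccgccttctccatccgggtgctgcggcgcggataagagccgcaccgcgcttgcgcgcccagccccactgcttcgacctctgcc

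Atp5g2 held the palindrome bound by NRF1, a regulator of respiratory genes, starting 42 bases before the gene start and overlapping a match to the shorter NRF1 motif TGCGCA at 37 bases. Atp5g3 held AAGGTCA, letters bound by estrogen-related receptors, on the other strand, starting 52 bases before the start. Over all members with a window, the NRF1 palindrome was present in 4 of 38 genes (10.5%), against 1.07% of the 27025 genes whose windows were used. TGCGCA, which overlaps the palindrome in some windows, was present in 9 members (23.7%), against 8.79% of all genes. CCGGAAG, the letters bound by GABPA, another regulator of respiratory genes, was present in 15 members (39.5%), against 9.93%. AAGGTCA was present in 5 members (13.2%), against 5.38%, and AAGATGGC, the letters bound by YY1, in 3 (7.89%), against 3.19%. A match is a description of letters and shows no binding. The windows of members held a median of 19 CG pairs, against 7 over all windows used, and the NRF1 and GABPA letters contain CG. The part of base composition in these shares was not tested.

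The second set shows both forms of subunits 7a and 8 of complex IV, because the muscle forms of these subunits held fewer CG pairs than their general forms. Capitals mark each CG pair.
Cox7a1 promoter, chr7:30183921-30184220, plus strand: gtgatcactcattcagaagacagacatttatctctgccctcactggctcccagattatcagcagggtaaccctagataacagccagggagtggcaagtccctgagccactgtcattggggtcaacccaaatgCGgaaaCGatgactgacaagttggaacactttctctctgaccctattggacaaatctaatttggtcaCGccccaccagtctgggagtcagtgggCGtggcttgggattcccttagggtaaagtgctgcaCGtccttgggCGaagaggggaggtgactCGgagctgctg
Cox7a2 promoter, chr9:79759804-79760103, minus strand: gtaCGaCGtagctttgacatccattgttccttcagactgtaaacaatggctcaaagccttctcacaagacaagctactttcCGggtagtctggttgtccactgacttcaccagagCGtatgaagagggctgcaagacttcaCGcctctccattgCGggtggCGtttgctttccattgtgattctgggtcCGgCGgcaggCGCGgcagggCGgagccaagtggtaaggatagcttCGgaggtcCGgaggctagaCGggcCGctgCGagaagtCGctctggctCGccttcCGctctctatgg
Cox8b promoter, chr7:140900397-140900696, minus strand: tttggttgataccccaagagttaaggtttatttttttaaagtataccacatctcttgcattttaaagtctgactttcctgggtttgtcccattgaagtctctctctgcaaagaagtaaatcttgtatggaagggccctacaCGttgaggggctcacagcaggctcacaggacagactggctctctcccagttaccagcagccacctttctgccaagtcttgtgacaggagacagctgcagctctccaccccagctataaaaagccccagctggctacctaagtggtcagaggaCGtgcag
Cox8a promoter, chr19:7217567-7217866, minus strand: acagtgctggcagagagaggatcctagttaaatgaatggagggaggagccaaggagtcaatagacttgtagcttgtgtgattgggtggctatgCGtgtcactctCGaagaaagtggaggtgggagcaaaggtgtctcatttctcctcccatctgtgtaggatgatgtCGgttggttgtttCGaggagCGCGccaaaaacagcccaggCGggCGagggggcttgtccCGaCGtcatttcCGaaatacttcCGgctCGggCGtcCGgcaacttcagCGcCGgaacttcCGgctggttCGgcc

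The muscle form Cox8b held 2 CG pairs and the muscle form Cox7a1 held 7, the lowest 2 counts among the 41 windows of members, which ran up to 44 with a median of 19. Their general forms held 19 (Cox8a) and 20 (Cox7a2), and Cox6a1, the general form of subunit 6a, held 32. Cox6a2, the muscle form of subunit 6a, had no window to set beside it. All windows outside chromosome 18 had a median of 7.

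The brighter members varied between samples about as much as other genes above the members' median level. The dimmer members were not set against genes of their own level. The SD over the 4 samples had a median of 0.09 over the members, against 0.19 over all genes and 0.17 over genes at or above the median of gene means, and it was under 0.1 for 28 of the 50. Among genes with a mean of at least 13.31, the median level of the members, the median SD was 0.0854 over 25 members and 0.0856 over the 91 other genes. Skeletal muscle fibre genes, which are brighter still and are among these other genes, had a median SD of 0.0405. Cox7c was the 1 member with a range over 1 (2.0%), against 5.98% of all genes. The members were bright, with 47 of 50 at or above the median of gene means of 7.86. The highest value on any array was 14.76, and 10 members had a mean within 1 of it. The members whose brightest probe set lay below the median were Cox7c, Cox4i2, a form of subunit 4 known from lung, and Cox6b2, a form known from testis.

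**Figure D1:**
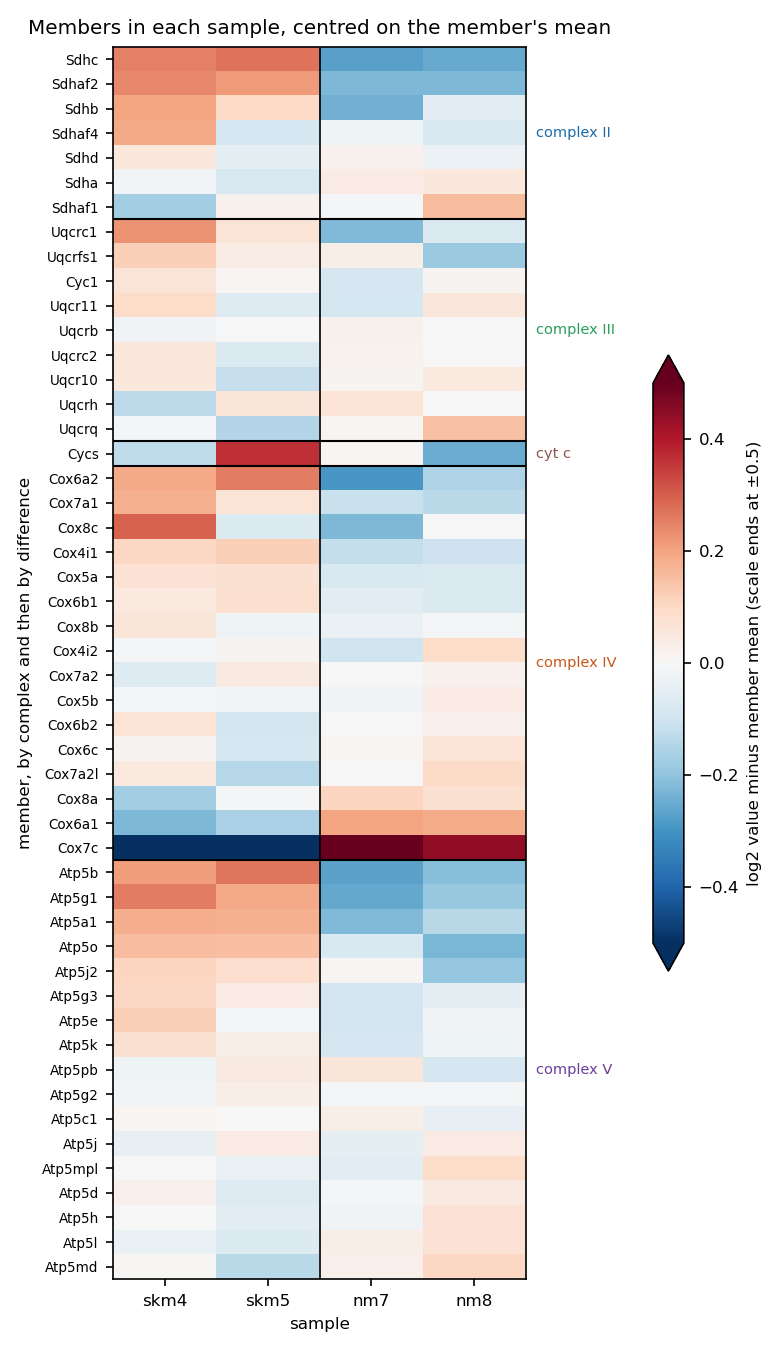
Each row is a member and each column a sample, with colour giving the log2 value minus the member's mean over the 4 samples, on a scale that ends at 0.5 either way. Sdhc, Sdhaf2, Cox6a2, Atp5b, Atp5g1 and Atp5a1 read high in both skm samples and low in both nm samples, Cox6a1 and Cox7c the other way, and Cycs was high in skm5 alone.

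Between the title prefixes, 0 of 50 members passed limma's test (adjusted p under 0.05 over all genes, 2-sided), against 0.0323% of all genes (4 genes). The count differed between fits. After genes dimmer than the median were left out, 6 of 47 members passed, 5 higher and 1 lower in skm, against 16.6% of the remaining genes (7.44% higher and 9.12% lower). With an intensity trend 8 of 50 passed, 6 higher and 2 lower, against 8.96% of all genes (3.81% higher and 5.15% lower). With quantile normalization, and with every probe set fitted, Cox7c alone passed, against 1.5% and 1.39% of all genes. At an unadjusted p under 0.05 there were 8 members (16.0%), 6 higher and 2 lower in skm, against 23.5% of all genes (10.6% higher and 13.0% lower). The samples did not overlap for 18 members higher in skm (36.0%, against 25.8% of all genes) and for 7 lower (14.0%, against 28.6%), and the other 25 overlapped. Both ways together, 25 of 50 members and 54.4% of all genes did not overlap. The difference was above 0 for 30 of 50 members, against 49.5% of all genes. Of the members without overlap, 72.0% were higher in skm. With 1 sample left out this share was 57.9% without skm4 (22 higher and 16 lower) and 69.2% without skm5 (27 and 12). It was 58.3% without nm7 (21 and 15) and 70.3% without nm8 (26 and 11). Separation is easier to reach with fewer samples, so these counts rise by design, and the shares over all genes were not taken for them. Over all 4 samples the share of higher ones among members without overlap was 62.5% with quantile normalization (15 higher and 9 lower, against 26.9% and 26.9% of all genes). It was 85.2% (23 higher and 4 lower, against 32.5% and 22.5% of all genes) with each array centred on its median. The median difference, skm minus nm, was 0.02 over the members and -0.0034 over all genes. The members' median absolute difference was 0.11, against 0.20 over all genes. Among genes with a mean of at least 13.31 the order was reversed, with 0.1292 over 25 members and 0.0853 over the 91 other genes. The share without overlap was 56.0% in both of these sets. Differences beyond 0.3 either way were found for 9 of 50 members, against 33.1% of all genes.

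The control probe sets of Actb differed between the prefixes at the 5' end of the transcript. There they read 14.19 and 14.30 in skm4 and skm5, against 13.09 and 12.98 in nm7 and nm8. The middle of the transcript read 12.33 and 12.49 in skm, against 12.48 and 12.33 in nm. The 3' end read 13.74 and 13.86 in skm, against 13.71 and 13.54 in nm. The Gapdh control probe sets, near the top of the scale, read 14.47 and 14.48 in skm, against 14.28 and 14.18 in nm at the 5' end. At the 3' end they read 14.51 and 14.50 in skm, against 14.48 and 14.43 in nm. The part of this 5' to 3' contrast in the members' differences was not tested. Lymphocyte markers differed with the prefixes too. Of 12 listed markers 11 were measured, all lower in skm without overlap, with a mean level of 6.10 and 6.85 in skm, against 7.76 and 7.90 in nm, and the median of the centred list was -1.18 and -0.17 in skm4 and skm5, against 0.55 and 0.75 in nm7 and nm8. The same median over the members was 0.05 and 0.01 in the skm samples, against -0.02 and -0.01 in the nm samples. Of 8 measured adipocyte markers 7 had a negative difference, with centred medians of -0.55 and -0.07 in skm, against 0.17 and 0.37 in nm. The part of these cells in the members' differences was not tested.

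**Figure D2:**
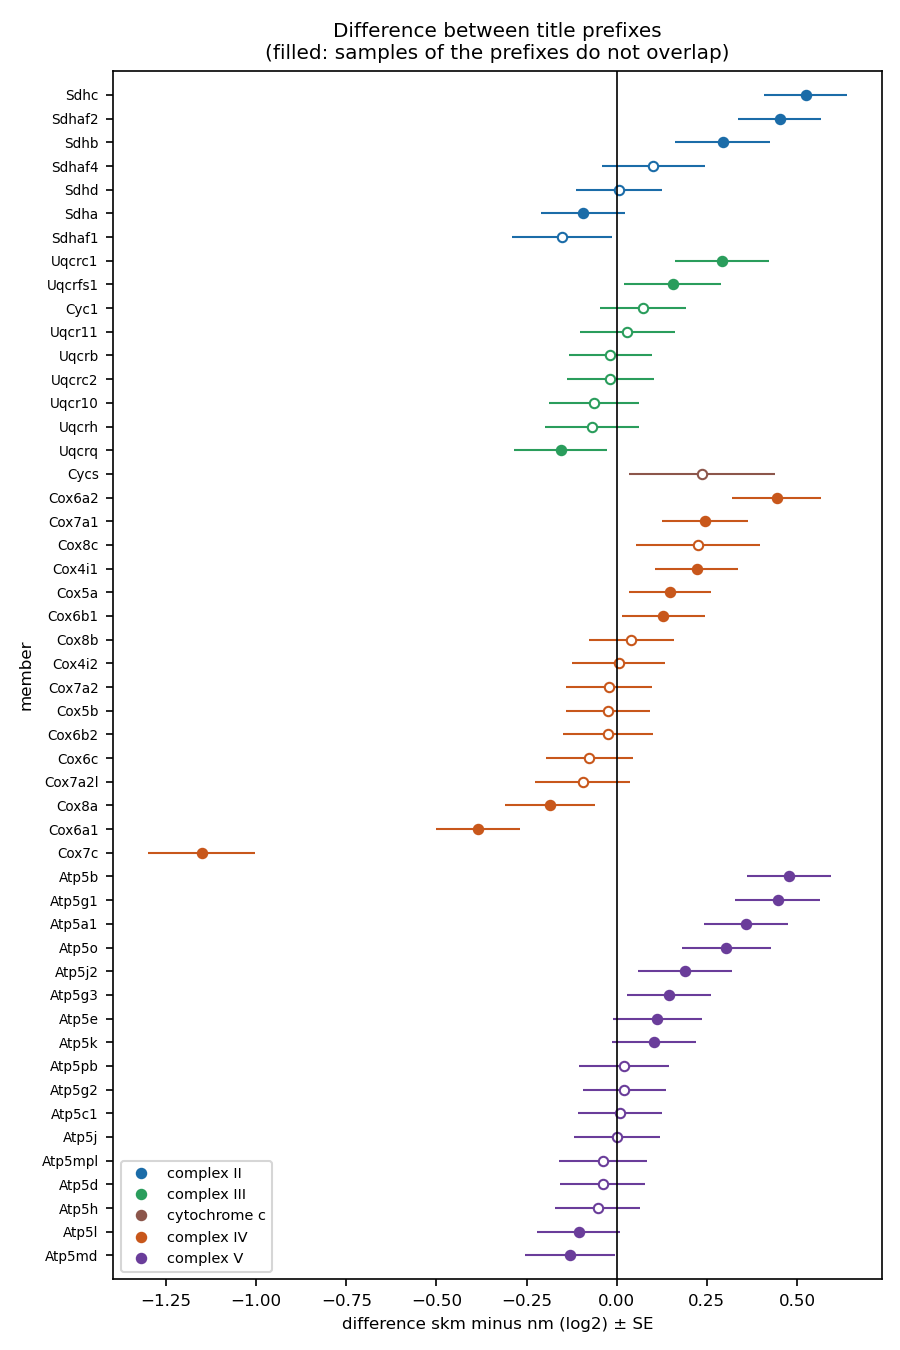
Each point is a member's skm minus nm difference (log2) with its standard error, ordered by complex and then by difference, and filled where the samples of the prefixes do not overlap. Most points lie within 0.3 of 0, Sdhc is highest at 0.52 and Cox7c lowest at -1.15.

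Complex II had a median difference of 0.10 over its 7 members, which was -0.04 without skm4 and 0.24 without skm5. At an unadjusted p under 0.05 there were 2 members (28.6%), both higher in skm, against 23.5% of all genes. Sdhc, a membrane anchor that helps to bind ubiquinone, read 12.35 and 12.37 in skm4 and skm5, against 11.82 and 11.84 in nm7 and nm8. Both skm samples lay above both nm samples, by 0.52 ± 0.11 (SE, n = 2 per prefix), which is 1.44-fold (limma, adjusted p = 0.0818). Its second probe set differed by 0.54 in the same direction. Sdhd, the other anchor, differed by 0.01 ± 0.12 and overlapped.

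Among the catalytic subunits of complex II, Sdhb, which carries the iron-sulfur clusters, read 13.73 and 13.64 in skm, against 13.30 and 13.48 in nm. It was higher without overlap, by 0.29 ± 0.13 (limma, adjusted p = 0.253). Sdha, the flavoprotein that oxidises succinate, read 12.80 and 12.73 in skm, against 12.85 and 12.86 in nm, a difference of -0.09 ± 0.12. This is smaller than its standard error. Its second probe set differed by 0.20. The assembly factors of complex II differed among themselves. Sdhaf2, which helps to attach the flavin to Sdha, read 10.13 and 10.10 in skm, against 9.66 and 9.66 in nm, a difference of 0.45 ± 0.11 (1.37-fold, limma, adjusted p = 0.104). Sdhaf1, which acts in iron-sulfur cluster insertion into Sdhb, read 9.86 and 10.05 in skm, against 10.03 and 10.19 in nm, a difference of -0.15 ± 0.14, which was -0.06 without skm4. Sdhaf4, which helps Sdha to join Sdhb, differed by 0.10 ± 0.14. Both of these overlapped between the prefixes.

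Complex III had a median difference of -0.02, with 4 of 9 members positive. This count depended on the processing. Averaging the probe sets gave 8 of 9 positive and a median of 0.07. Centring each array on its median gave 6 of 9 and 0.04, and quantile normalization 3 of 9 and -0.02. With the settings reported, 0 of 9 members had an unadjusted p under 0.05, against 23.5% of all genes. Without overlap, 2 members were higher in skm and 1 lower, against 25.8% and 28.6% of all genes, and the other 6 overlapped. Uqcrc1, a core subunit, read 13.82 and 13.66 in skm, against 13.37 and 13.52 in nm, higher by 0.29 ± 0.13 (limma, adjusted p = 0.255). Its partner core subunit Uqcrc2 differed by -0.02 ± 0.12. Uqcrfs1, the Rieske iron-sulfur protein, read 12.82 and 12.74 in skm, against 12.73 and 12.51 in nm, where skm5 and nm7 were nearly level (difference 0.16 ± 0.13). Without nm8 that difference was 0.05. Cyc1, the cytochrome c1 that passes electrons on, read 13.25 and 13.20 in skm, against 13.10 and 13.20 in nm, and overlapped. Uqcrq, a small subunit, read 13.38 and 13.24 in skm, against 13.40 and 13.53 in nm, lower without overlap. It differed by -0.16 ± 0.13 at this brightest probe set (-0.09 without nm8 or without skm5), and by 0.64 at a dim one with a mean of 7.06. The 4 other subunits, Uqcr10, Uqcr11, Uqcrb and Uqcrh, lay between -0.07 and 0.03.

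Cycs, the mobile cytochrome c, varied within a prefix. It read 13.22 and 13.72 in skm4 and skm5, against 13.36 and 13.11 in nm7 and nm8, so that skm5 was highest and the prefixes overlapped. The skm5 sample also stood apart in markers of other cells. Of 8 keratinocyte markers 7 were measured, with centred medians of -0.45 and 0.95 in skm4 and skm5, against -0.58 and -0.22 in nm7 and nm8. Among them Dsp, the desmosome protein desmoplakin, read 4.32 and 8.33 in skm, against 4.12 and 4.48 in nm. Of 6 Schwann cell markers 3 were measured, with centred medians of -0.56 and 0.76 in skm, against 0.13 and -0.07 in nm. The part of these cells in the value of Cycs was not tested. The difference was 0.24 ± 0.20, and ran between -0.01 without skm5 and 0.48 without skm4. Its 2 other probe sets differed by 0.04 and 0.09.

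In complex IV, 8 members had a positive difference and 8 a negative one, with a median of -0.01. This balance depended on the processing. Averaging the probe sets gave 11 of 16 positive and a median of 0.04. Centring each array on its median gave 11 of 16 and 0.05, and quantile normalization 8 of 16 and -0.01. The forms of subunit 6a ran in opposite directions. Cox6a2, the muscle and heart form, read 13.78 and 13.85 in skm4 and skm5, against 13.30 and 13.44 in nm7 and nm8. It was higher in skm without overlap, by 0.44 ± 0.12, which is 1.36-fold (limma, adjusted p = 0.118). Cox6a1, the general form, read 13.53 and 13.59 in skm, against 13.95 and 13.94 in nm, and was lower without overlap, a difference of -0.38 ± 0.12 (0.766-fold, limma, adjusted p = 0.136). Its second probe set differed by -0.29 in the same direction.

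The other muscle forms differed less. Cox7a1, the muscle and heart form of subunit 7a, read 13.25 and 13.14 in skm, against 12.96 and 12.94 in nm, higher by 0.24 ± 0.12 without overlap, while its general form Cox7a2 read 13.85 and 13.96 in skm, against 13.92 and 13.94 in nm (difference -0.02 ± 0.12). Cox8b, the muscle form of subunit 8, read 13.73 and 13.65 in skm, against 13.64 and 13.66 in nm, and overlapped. Its general form Cox8a read 11.27 and 11.44 in skm, against 11.56 and 11.53 in nm, lower without overlap (-0.19 ± 0.12, and -0.10 without skm4). Cox8a's second bright probe set differed by -0.17 and a dim one by 0.45. Cox7a1 and Cox8b are also expressed in brown fat, whose markers Ucp1 and Cidea are given above.

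Set against its general form within each sample, the muscle form was higher in skm by 0.83 for subunit 6a, by 0.26 for 7a and by 0.23 for 8 on the log2 scale, each without overlap between the prefixes. For the pairs of another tissue form the sign was opposite, -0.22 for Cox4i2 against Cox4i1 and -0.15 for Cox6b2 against Cox6b1. These pairs did not overlap between the prefixes either, and the dim Cox4i2 and Cox6b2 themselves differed by only 0.01 and -0.02. For subunit 8 the nearest samples, skm5 and nm8, had centred log2 ratios of -0.01 and -0.09. The share of such separation over other pairs of genes was not taken. An exact permutation test over the samples (2-sided, 5 pairs) gave p = 0.333 for every pair, the smallest p that 2 samples against 2 allow, so none of these could pass. With the mean of all probe sets the difference of Cox8a was 0.03, which turns its direction.

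**Figure D3:**
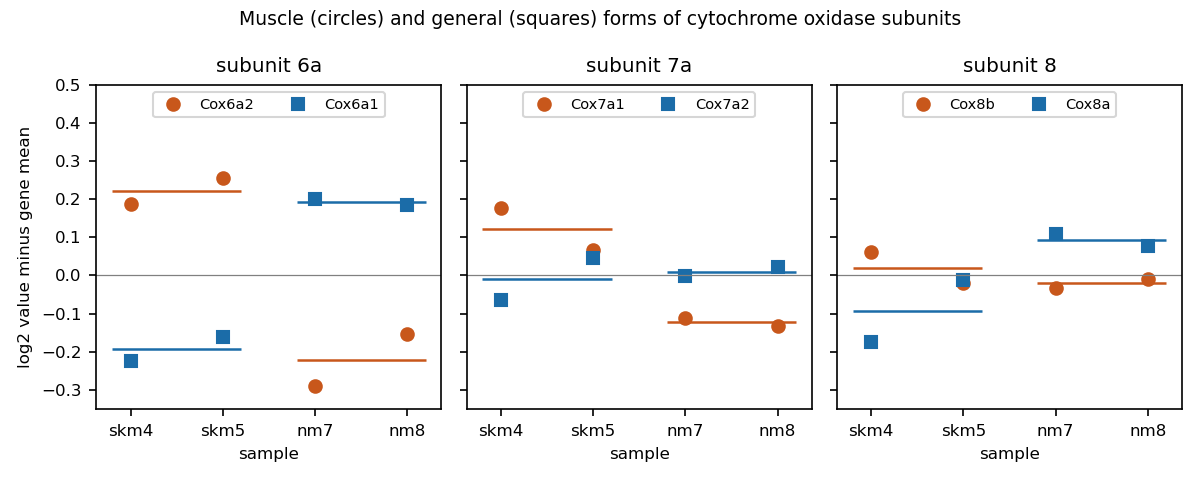
Points are log2 values minus the gene's mean, for each sample, with lines at the mean of each prefix. Circles are the muscle forms and squares the general forms of subunits 6a, 7a and 8. For 6a the forms lie on opposite sides of 0 in every sample, whereas for 7a and 8 the skm5 values of both forms lie close together.

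The remaining subunits of complex IV had differences within 0.3 of 0, apart from Cox7c. Cox4i1, the general form of subunit 4, read 13.91 and 13.93 in skm, against 13.69 and 13.71 in nm, higher by 0.22 ± 0.11 without overlap, while the dim Cox4i2 read 6.81 and 6.83 in skm, against 6.71 and 6.91 in nm. Cox6b1, the general form of subunit 6b, read 14.00 and 14.03 in skm, against 13.89 and 13.88 in nm, higher without overlap by 0.13 ± 0.12. The dim Cox6b2 read 6.85 and 6.69 in skm, against 6.78 and 6.81 in nm, and overlapped. Cox5a was higher without overlap by 0.15, and Cox6c differed by -0.08 with overlap. Cox5b differed by -0.02 with overlap at its brightest probe set, while 2 of its other bright probe sets were higher in skm without overlap, by 0.33 at a mean of 13.18 and by 0.23 at 13.63. Cox7a2l, which helps to join complexes III and IV, differed by -0.09, and Cox8c, a testis form, by 0.22, both with overlap. The difference of Cox8c was 0.04 without skm4, 0.11 without nm7 and 0.41 without skm5.

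Cox7c, a small subunit, had the largest difference of any member. It read 6.11 and 5.95 in skm4 and skm5, against 7.31 and 7.05 in nm7 and nm8, lower without overlap (-1.15 ± 0.15), which is 0.450-fold (limma, adjusted p = 0.0506). Its second probe set, with a mean of 4.53, differed by -0.48. Both probe sets were dim, below the median of gene means, and the second stood near the control probe sets for bacterial tryptophan genes given above. The brighter one ends in _s_at. As levels of different probe sets are not comparable, these readings do not show how strongly Cox7c was expressed. Whether these probe sets report the main Cox7c transcript was not tested. Leaving out each sample in turn gave adjusted p between 0.0834 and 0.212.

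**Figure D4:**
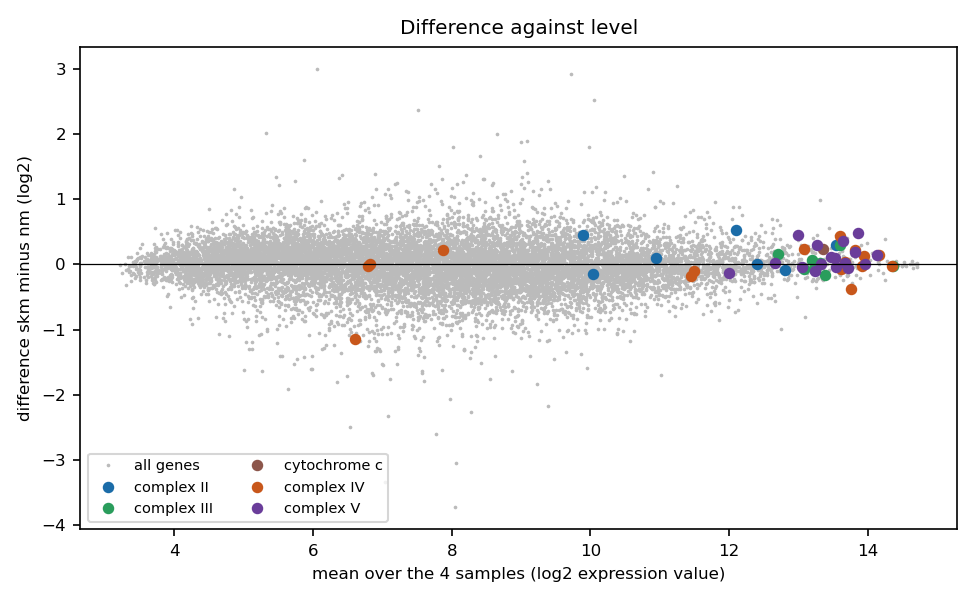
The skm minus nm difference (log2) of every gene is set against its mean over the 4 samples, with members coloured by complex. Most members lie at the bright end and near 0, and Cox7c lies apart from them at a mean of 6.60.

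In complex V, 12 of 17 members had a positive difference, against 49.5% of all genes, and the median was 0.02. This count depended on the normalization. With quantile normalization 8 of 17 were positive, with a median of -0.02. With each array centred on its median it was 15 of 17, with a median of 0.08. The 3 largest differences were in the catalytic head and the c ring. Atp5b, the catalytic beta subunit, read 14.07 and 14.13 in skm4 and skm5, against 13.60 and 13.65 in nm7 and nm8. It was higher without overlap, by 0.48 ± 0.12, which is 1.39-fold (limma, adjusted p = 0.098). Atp5a1, the alpha subunit, read 13.82 and 13.82 in skm, against 13.42 and 13.50 in nm, a difference of 0.36 ± 0.12 (limma, adjusted p = 0.154). Its other probe sets differed by 0.16 and, at a mean of 9.67, by -0.55, so that its mean over probe sets gave -0.01. The other subunits of the head and central stalk, Atp5c1 (gamma), Atp5d (delta) and Atp5e (epsilon), differed by 0.01, -0.04 and 0.11 at their brightest probe sets. A second bright probe set of Atp5d (mean 13.08) was higher in skm without overlap by 0.37, and a dim one of Atp5c1 (mean 5.82) by 0.24.

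The c ring genes, whose promoters are printed above, were unequal. Atp5g1 read 13.25 and 13.19 in skm, against 12.74 and 12.81 in nm, higher without overlap by 0.45 ± 0.12 (1.36-fold, limma, adjusted p = 0.109). Atp5g3 read 14.24 and 14.18 in skm, against 14.04 and 14.08 in nm, higher without overlap by 0.15 ± 0.12. Atp5g2 read 12.65 and 12.69 in skm, against 12.65 and 12.65 in nm, with overlap and a difference of 0.02 ± 0.12. Atp5g1, without a motif match in its window, had the largest difference of the 3, and the differences between the 3 genes were not tested.

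In the peripheral stalk, which holds the head in place, Atp5o, the oligomycin sensitivity protein, read 13.42 and 13.42 in skm, against 13.20 and 13.04 in nm. It was higher without overlap, by 0.30 ± 0.12 (limma, adjusted p = 0.217), and its second probe set by 0.50. Atp5pb, Atp5h and Atp5j, the other stalk subunits, lay between -0.05 and 0.02 and overlapped. Of the small membrane subunits, Atp5j2 differed by 0.19 ± 0.13 without overlap, but by 0.09 without nm8 and by 0.01, with overlap, at its other probe set. Atp5md differed by -0.13 ± 0.12 without overlap, and by -0.06 without skm5. Atp5k (0.10 ± 0.12) and Atp5l (-0.11 ± 0.12) did not overlap between the prefixes, with differences smaller than their standard errors. The 2 other probe sets of Atp5k overlapped, and so did Atp5mpl.

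Of the 27 members with several probe sets, 6 (22.2%) had every probe set separated between the prefixes in the same direction, against 17.0% of the 4956 genes with several probe sets. These were Sdhc, Sdhaf2, Atp5o and Cox6b1, higher in skm, and Cox6a1 and Cox7c, lower. In 4 of the 27, against 15.4% of such genes, namely Atp5a1, Cox8a, Sdha and Uqcrq, 1 probe set was higher and another lower without overlap. Both shares are near those of all such genes.

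**Figure D5:**
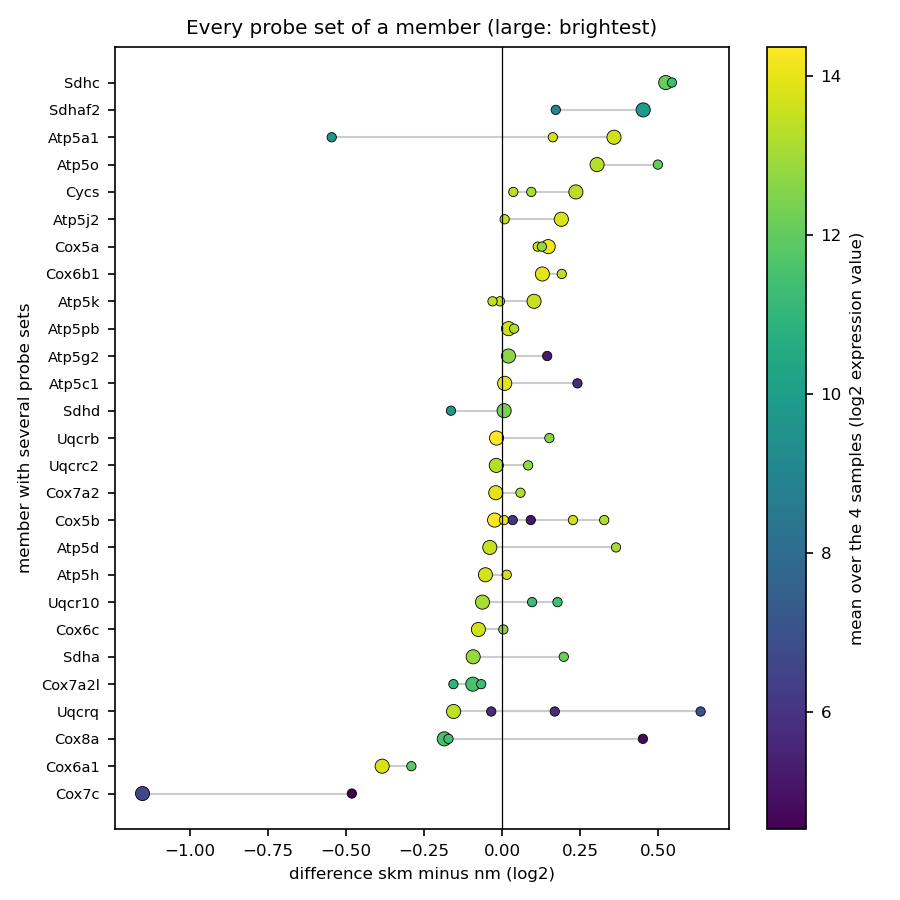
Each row is a member with several probe sets, each point a probe set's skm minus nm difference (log2), with colour giving its mean level and the large point the brightest. The points of Sdhc and of Cox6a1 lie close together, while those of Atp5a1, Uqcrq and Cox8a lie on both sides of 0. At 1 end of each of these lies a probe set dimmer than the brightest, which for Atp5a1 has a mean of 9.67.

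Of 27 measured assembly factors of complexes II to V, 3 of which are the Sdhaf members above, 0 passed, 7 (25.9%, against 23.5% of all genes) had an unadjusted p under 0.05, 6 higher and 1 lower in skm, and the median difference was 0.10. Uqcc3, an assembly factor of complex III, read 10.58 and 10.63 in skm, against 9.82 and 9.94 in nm (0.72 ± 0.12, adjusted p = 0.0628 in limma). Cmc2, which acts in complex IV assembly, differed by 0.52 ± 0.12, and Atpaf2, a chaperone of the Atp5a1 subunit, by 0.49 ± 0.12. Of 17 measured regulators, 0 passed and 3 (17.6%, below the 23.5% of all genes), each lower in skm, had an unadjusted p under 0.05. Yy1 differed by -0.50 ± 0.12, Hif1a, the hypoxia factor, by -0.43 ± 0.12 and Gabpa, named because it completes these 3, by -0.41 ± 0.14. Esrrb, a dim estrogen-related receptor, differed by 0.52 ± 0.22. Ppargc1a, the coactivator of mitochondrial biogenesis, read 9.35 and 9.34 in skm, against 9.55 and 9.40 in nm (-0.13 ± 0.12), and Esrra, its partner receptor, differed by 0.31 ± 0.16 without overlap. By promoter motif, the median difference of members with and without a match was 0.0011 and 0.04 for CCGGAAG, 0.06 and 0.01 for the NRF1 palindrome, 0.0067 and 0.04 for TGCGCA, 0.10 and 0.02 for AAGGTCA, and 0.02 and 0.02 for AAGATGGC.

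Of 20 measured genes of mitochondrial mass outside the chain, 0 passed and 4 of 20, against 23.5% of all genes, had an unadjusted p under 0.05, 2 in each direction, with a median of 0.04. Tomm40, the pore of the outer membrane translocase, read 9.85 and 9.61 in skm, against 8.41 and 8.50 in nm (1.27 ± 0.14, adjusted p = 0.0506 in limma). Slc25a3, the phosphate carrier that supplies complex V, differed by 0.45 ± 0.12, and Tomm70a, an import receptor, by -0.42 ± 0.14. Vdac1, the main outer membrane channel, and Cs, citrate synthase, differed by 0.10 and -0.02. Slow and oxidative fibre genes had centred medians of 0.38 and -0.42 in skm4 and skm5, against 0.29 and -0.22 in nm7 and nm8, so the samples of each prefix lay on both sides of 0.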

How the data were processed

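Total RNA of the 4 samples was measured on 1-colour Affymetrix arrays. The authors deposited log2 values per probe set, and the submitters' processing notes name RMA and Affymetrix Expression Console 1.1. The set of arrays normalized together is unknown here. Of 22690 probe sets, 64 controls stayed out of the fit, 20380 had 1 gene, 691 several and 1555 none. Symbols were updated through Entrez identifiers (GRCm38.p6 gene table), with 29 probe sets keeping older ones. The brightest probe set stood for each of 12393 genes. Differences between prefixes were fitted by lmFit and eBayes of limma 3.58.1 under R 4.3.3, with Benjamini-Hochberg adjustment over all genes, after a check on simulated data. Each gene had 2 residual degrees of freedom, to which the moderated variance added 3.51. As the source animals are not stated, the p-values describe the spread among these arrays alone.

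The members and lists were chosen with earlier results of these data known. Members given with sample values were, in each complex, the 4 with the largest absolute difference and the 2 with the largest SD, besides the paralog pairs of complex IV and the catalytic, electron-carrying and c ring subunits. Of the related lists, up to 3 genes by absolute difference were named, with Ppargc1a and Esrra. Gabpa, Vdac1, Cs, single probe sets and the marker genes fall outside this rule and were picked with their values known. Alternatives were quantile normalization, median centring, a filter on dim genes, averaged probe sets, leaving out probe sets ending in _x_at or _s_at, each sample left out, an intensity trend, and every probe set fitted.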

Additional observations from a re-analysis of the deposited data

Results flagged for a closer look

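Atp5g2 was flagged because 1 sample stood apart from the others. It read 12.65 in skm4, 12.69 in skm5 and 12.65 in both nm7 and nm8, and the gap to the nearest sample was 0.931 of the range. The whole range was under 0.05 on the log2 scale. Cox5b was flagged likewise, at 14.33 in skm4, skm5 and nm7 and 14.38 in nm8, with a gap of 0.863 of the range. Of 50 members looked at, 2 were flagged, and chance flags about 1 in 20 groups.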

How the results depend on the processing

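The count of members past limma's test was 0 with the settings reported. After the filter on dim genes it was 6 of 47 (against 16.6% of genes there), 8 with an intensity trend (against 8.96%), 1 with quantile normalization and 1 with every probe set fitted. The filtered fit called Sdhc, Sdhaf2, Atp5b, Atp5g1 and Cox6a2, higher, and Cox6a1, lower, at adjusted p of 0.0227 to 0.0446. The trend called the same 6 with Atp5a1 and Cox7c, and the 2 single calls were Cox7c (adjusted p = 0.0403 and 0.0447). Leaving out each sample in turn gave 21 to 27 members without overlap and higher in skm (18 with all samples) and 11 to 16 lower (7 with all samples). Separation is easier to reach with fewer samples, so these counts rise by design, and the shares over all genes were not taken for them. The members' median difference was then 0.03 to 0.05 and their median SD 0.08 to 0.09. The median difference was -0.0016 with quantile normalization and 0.08 with median centring. Directions turned for Atp5a1 (-0.008), Cox8a (0.0315) and Uqcrq (0.15) with the mean of probe sets, for Uqcrq (0.64) without cross-hybridizing probe sets and for Cycs, which ran between -0.0106 without skm5 and 0.4836 without skm4. The cause of these changes was not tested. Members whose reported difference was smaller than its standard error were left out of this count of turned directions. Of 24 members with a larger difference, 8 moved by over 1.5 times without 1 sample, namely Atp5j2, Atp5md, Cox8a, Cox8c, Cycs, Sdhaf1, Uqcrfs1 and Uqcrq. The signal of the dim members, Cox7c, Cox4i2 and Cox6b2, limits what can be read from them. No paired analysis was possible because the titles give the prefixes no shared numbers.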
